A study of Rattus norvegicus with 24 samples.

Results

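The genes described here are 9 genes that mark dopamine neurons or supply them: the synthesis enzymes Th and Ddc, the cofactor enzymes Pts and Qdpr, the transporters Slc18a2 and Slc6a3, and the identity genes Ret, Nr4a2 and Aldh1a1. Their members are all probe sets to which the platform annotation gives 1 of these symbols, 16 of the 31042 probe sets kept on the array, and 9 of 14217 genes. Of the 9 genes, 4 had 1 probe set. Where a gene had several, the probe set with the highest mean log2 signal stands for it and the others are given beside it.

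The arrays come from a study that set a genetic model of attention deficit hyperactivity disorder beside an environmental one, both in the rat. It used 28 male rats at postnatal day 55 to 65 and took total RNA from 6 regions of the brain. SHR, the spontaneously hypertensive rat, gave 8 animals and is set against its control strain WKY, the Wistar-Kyoto rat, with 8 animals. SD-PCB, Sprague-Dawley rats exposed to PCB (polychlorinated biphenyls), gave 4 animals and is set against SD, Sprague-Dawley rats without that exposure, with 8 animals. The dose and the time of the exposure are not given in the sources used here. The regions are SN_VTA (substantia nigra and ventral tegmental area), DS (dorsal striatum), VS (ventral striatum), PFC (prefrontal cortex), Hipp (hippocampus) and Vermis (cerebellar vermis). Each combination of region and strain group has 1 Affymetrix array, so there are 24 arrays, and no source used here says how many rats an array holds.

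Dopamine is made from tyrosine by tyrosine hydroxylase (Th), which needs tetrahydrobiopterin, and then by the decarboxylase Ddc. The vesicular transporter Slc18a2 loads it into vesicles and the plasma membrane transporter Slc6a3 takes it back up after release. The cell bodies of these neurons lie in the substantia nigra and ventral tegmental area, while the striatum and prefrontal cortex receive their axons, so that their mRNA is found mainly in the midbrain.

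In the rat assembly GRCr8, 4 of the 9 genes lie on chromosome 1: Slc6a3 at chr1:31537990-31578962, Th at chr1:207500959-207508276, Aldh1a1 at chr1:227426939-227579497 and Slc18a2 at chr1:268399815-268435229. Ddc (chr14:90592304-90682830) and Qdpr (chr14:69882776-69896378) lie on chromosome 14. Nr4a2 is at chr3:62098739-62115926, Ret at chr4:152998344-153040556 and Pts at chr8:59767234-59774265.

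The upstream sequences of 3 genes are shown because Th, Slc6a3 and Slc18a2 were bright together in SN_VTA. They are from RefSeq's promoter table of GRCr8, read 5′ to 3′ on the gene's own strand, and capitals mark the cyclic AMP response element TGACGTCA, which reads the same on both strands. Th is shown at chr1:207508277-207508368 (minus strand, 150 to 59 bases before the start site of the table), Slc18a2 at chr1:268399958-268399987 (plus strand, 30 bases around the match, which lies within the annotated gene because another annotated start lies 206 bases further upstream) and Slc6a3 at chr1:31578963-31579112 (minus strand, 150 bases up to the start site).
Th: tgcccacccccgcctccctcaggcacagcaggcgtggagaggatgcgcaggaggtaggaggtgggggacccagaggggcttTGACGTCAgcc
Slc18a2: agtgctatccgTGACGTCAgagccggactg
Slc6a3: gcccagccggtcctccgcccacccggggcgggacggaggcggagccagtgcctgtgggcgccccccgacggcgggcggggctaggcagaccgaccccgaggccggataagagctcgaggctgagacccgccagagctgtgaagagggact

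The element was at -69 to -62 in Th and at -52 to -45 in Slc18a2, and these letters were not in the 250 bases before the start of the other 7 genes. It was in the same window of 531 of 33469 promoters of the table (1.59%). The motif AAAGGTCA, known as a binding site of Nr4a2 and its relatives and searched on both strands, was found among the members only at 1 of the 3 start sites of Ddc, at -73 to -66 on the opposite strand, and in 1.24% of all promoters. The motif TAATCC, bound by homeodomain factors of the Pitx3 type, was in none of the 11 windows of the 9 genes and in 6.34% of all promoters. None of these motifs overlaps another. A match is a description of the letters only.

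All values are MAS5 signals, a linear brightness on which every array has the same 2% trimmed mean (500.1 to 500.2), so a signal may be compared between arrays for 1 probe set and not between probe sets. Array medians were 131.7 to 178.2 in SHR, 108.9 to 152.6 in WKY, 89.0 to 126.2 in SD-PCB and 130.7 to 183.8 in SD. Detection calls were not used here, so what a dim signal owes to background is not known. Regions and strain groups were compared with limma on log2(signal + 1), with region and strain group as terms, and p-values were adjusted with Benjamini-Hochberg over all 31042 probe sets. A region difference was called at an adjusted p under 0.05 with a log2 difference of at least 1, and a strain group difference at an adjusted p under 0.05. The arrays of the different strain groups, SD-PCB among them, serve as the repeats of a region. In bulk tissue, fewer cells of a type and less RNA per cell cannot be told apart.

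In SN_VTA, 7 of 9 dopamine neuron genes were higher than in the mean of the other 5 regions (10 of 16 probe sets) and 0 were lower, while 1.85% of all probe sets were higher. The median log2 difference was 2.49 over the 9 genes and -0.10 over all probe sets. Of the probe sets called in either direction 31.0% were higher; quantile normalization gave 45.3% and centring each array on its median gave 54.6%, with the same 7 genes called. Slc6a3 and Th differed most, by log2 7.02 and 6.01, and Nr4a2 and Pts did not pass.

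**Figure D1:**
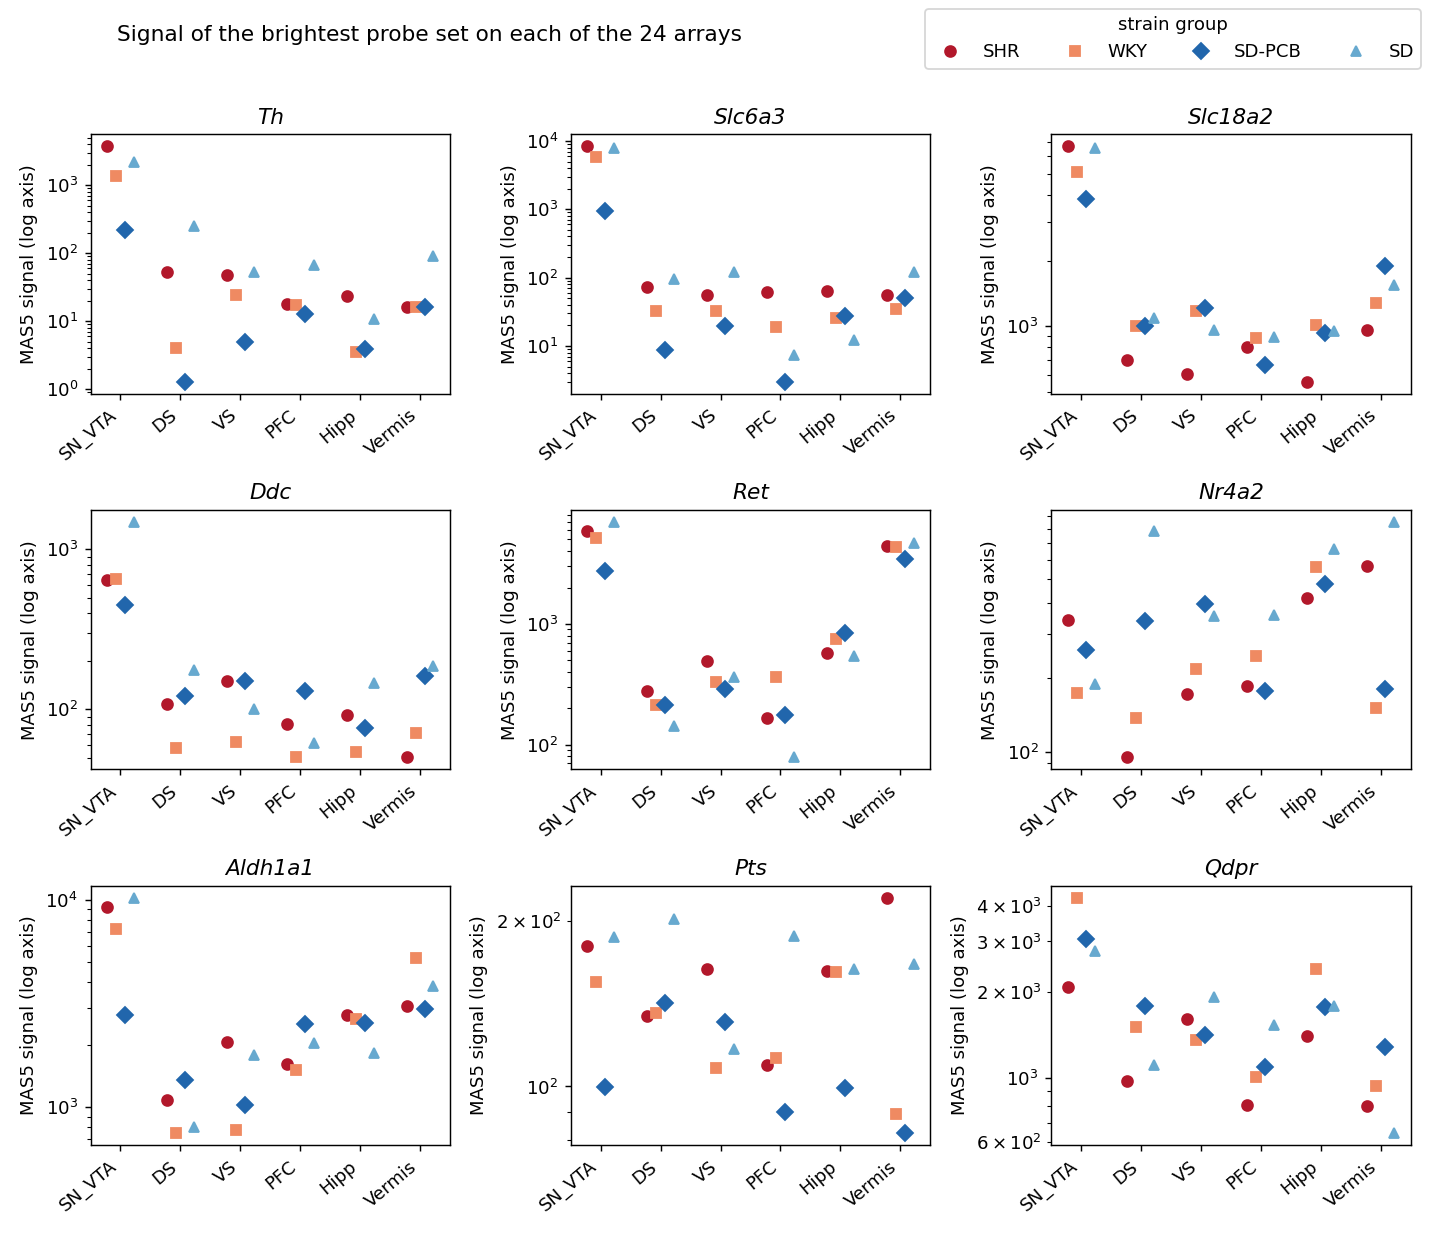
MAS5 signal (log axis, a separate scale for each gene) of the brightest probe set of the 9 genes by region, SN_VTA leftmost. Each point is 1 array, with symbols for SHR, WKY, SD-PCB and SD. In the Slc6a3 panel the 4 SN_VTA arrays lie at 955 to 8411 and every other array at or under 122, while Ret and Aldh1a1 are bright in Vermis as well and the Nr4a2 regions overlap.

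Among the synthesis enzymes, Th (1387075_at), whose product makes L-DOPA, gave 3742 in SHR, 1368 in WKY, 217 in SD-PCB and 2223 in SD in SN_VTA. The other 20 arrays gave 1.29 to 249, with a median of 16.7. Of the 4 SN_VTA arrays, 3 were above every other array, and the SD-PCB array lay under the DS array of SD. The difference was log2 6.01 ± 0.60 (SE, adjusted p = 1.56e-08), positive in 4 of 4 strain groups, at 4.98 to 7.01. Ddc (1368064_a_at), which turns L-DOPA into dopamine and also serves serotonin synthesis, gave 643 in SHR, 651 in WKY, 447 in SD-PCB and 1486 in SD, against 50.1 to 186 in the other regions. The groups did not overlap, and the difference was log2 2.92 ± 0.31 (adjusted p = 4.08e-08). The second Ddc probe set, 1375317_at, was dim in SN_VTA (27.7, 45.1, 9.31 and 56.5 in SHR, WKY, SD-PCB and SD) and did not pass, at -0.43 ± 0.58 (adjusted p = 0.693).

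The cofactor enzymes behaved unlike each other. Qdpr (1367695_at), which returns the spent cofactor to tetrahydrobiopterin, gave 2074 in SHR, 4271 in WKY, 3070 in SD-PCB and 2786 in SD in SN_VTA, and 644 to 2406 elsewhere. The SHR array of SN_VTA fell within the range of the other regions. The difference was log2 1.19 ± 0.15 (adjusted p = 1.40e-06), the smallest among the 7 genes called. Pts (1369304_at), pyruvoyl tetrahydropterin synthase, which acts in making the cofactor, gave 180.0 in SHR, 155 in WKY, 99.8 in SD-PCB and 187 in SD. These signals lay within the 82.2 to 221.0 of the other regions, and the difference was 0.17 ± 0.25 (adjusted p = 0.712).

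Both transporters were higher in SN_VTA. Slc6a3 (1368601_at), the dopamine transporter, gave 8411 in SHR, 5916 in WKY, 955 in SD-PCB and 7789 in SD, against 2.99 to 121.7 in the other regions. The lowest SN_VTA array was well above the highest other array, and the difference was log2 7.02 ± 0.49 (adjusted p = 1.71e-11). Its dimmer probe set 1368602_at, at 86.4, 73.2, 20.9 and 95.3, gave 2.86 ± 0.54 (adjusted p = 2.57e-04).

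Slc18a2 (1369131_at), which also serves serotonin and noradrenaline neurons, gave 6692 in SHR, 5107 in WKY, 3828 in SD-PCB and 6566 in SD, against 557 to 1889.7 elsewhere. The groups did not overlap and the difference was log2 2.49 ± 0.15 (adjusted p = 1.49e-12). Its second probe set 1384933_at gave 4622, 3149, 1566 and 3781 in the same order of groups, against 67.8 to 339 elsewhere, a difference of 4.23 ± 0.29 (adjusted p = 1.31e-11). The 2 probe sets thus differed in the size of the difference, and the third, 1369132_at, did not pass (1.03 ± 0.54, adjusted p = 0.219).

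Among the identity genes, Ret (1370989_at), the receptor of the glial cell line-derived neurotrophic factor family, gave 5912 in SHR, 5106 in WKY, 2762 in SD-PCB and 7006 in SD in SN_VTA. Vermis gave 4376, 4365, 3416 and 4719 in these groups, while the other 4 regions stayed between 78.2 and 846. SN_VTA overlapped Vermis and no other region. The SN_VTA difference was log2 3.26 ± 0.22 (adjusted p = 1.19e-11). The probe set 1371112_at passed as well (3.86 ± 0.62, adjusted p = 3.97e-05), and 1388208_a_at did not (1.51 ± 0.60, adjusted p = 0.0858).

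Aldh1a1 (1387022_at), an aldehyde dehydrogenase that makes retinoic acid and marks a subset of nigral dopamine neurons, gave 9227 in SHR, 7233 in WKY, 2787 in SD-PCB and 10224 in SD. The other regions ran from 749 to 5224, with the highest values in Vermis. The SD-PCB array alone of the 4 lay within that range. The difference was log2 1.84 ± 0.23 (adjusted p = 9.64e-07), positive in 4 of 4 strain groups, at 0.54 to 2.49.

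Nr4a2 (1369007_at), known as Nurr1, is a nuclear receptor that dopamine neurons need and that many other neurons express too. It gave 343 in SHR, 174 in WKY, 259 in SD-PCB and 188 in SD in SN_VTA, against 95.1 to 853 elsewhere. By mean log2 signal SN_VTA came at rank 5 of the 6 regions, after Hipp, Vermis, VS and DS, and all neighbours in that order overlapped. The difference was -0.40 ± 0.33 (adjusted p = 0.482), and its second probe set 1387410_at gave -0.59 ± 0.42 (adjusted p = 0.401).

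Against each single region, 4 of the 9 genes passed all 5 comparisons, namely Th, Slc6a3, Slc18a2 and Ddc, where 0.280% of all probe sets did. Ret did not pass against Vermis (0.23 ± 0.29, adjusted p = 0.588), and Aldh1a1 against Vermis stayed under the log2 limit (0.85 ± 0.30, adjusted p = 0.0362). Qdpr stayed under it against VS (0.92 ± 0.20) and Hipp (0.71 ± 0.20). Without the SD-PCB arrays the 7 genes were called again, with Th at 6.36, Slc6a3 at 7.40 and Aldh1a1 at 2.28.

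**Figure D2:**
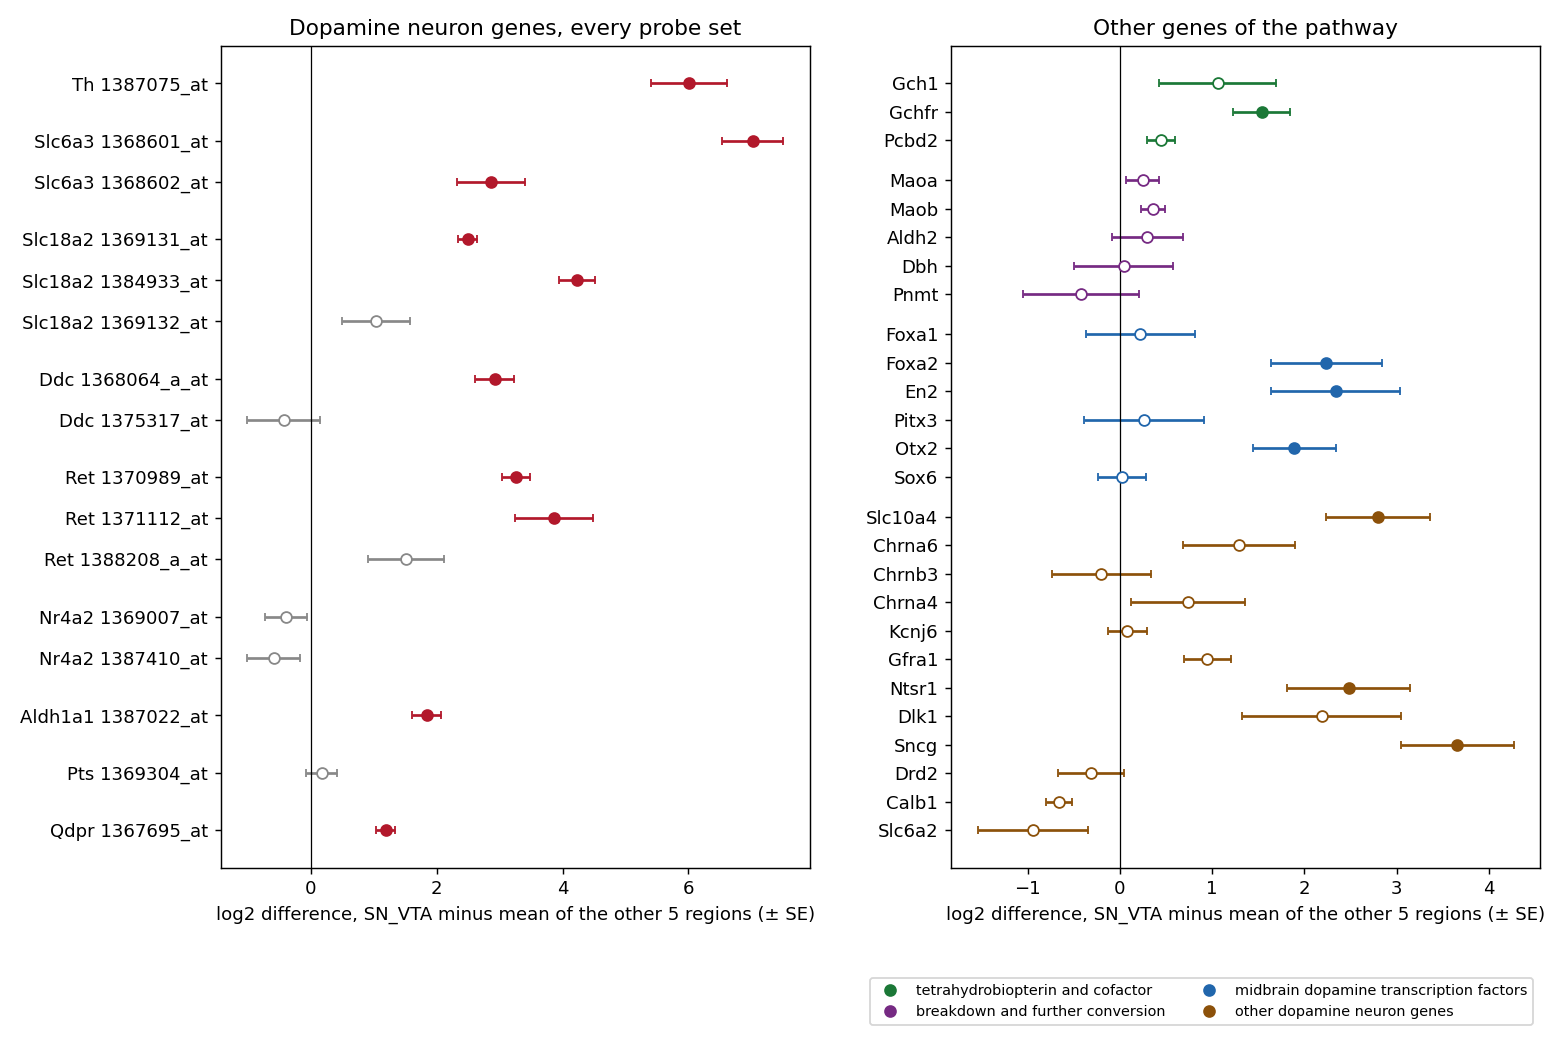
Log2 difference of SN_VTA minus the mean of the other 5 regions (points) with its SE (bars) for the 16 probe sets of the 9 genes, left, and for the measured genes of 4 related lists, right. Filled points passed an adjusted p of 0.05 and a log2 difference of 1; open points did not. Slc6a3 and Th lie farthest right at 7.02 and 6.01, and the Nr4a2 probe sets lie left of 0.

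The list medians were 1.06 for the cofactor genes, 0.25 for breakdown, 1.07 for the transcription factors and 0.85 for the other genes, beside -0.10 over all probe sets. Of the genes that make, regulate or recycle the cofactor, 1 of 3 measured was higher in SN_VTA: Gchfr, the feedback regulator of cofactor synthesis (1.54 ± 0.31, adjusted p = 6.47e-04). Pcbd2, a cofactor recycling enzyme, passed the p limit at 0.45 ± 0.15 (adjusted p = 0.0388) and stayed under the log2 limit. Gch1, the first enzyme of that synthesis, gave 1.06 ± 0.63 (adjusted p = 0.296). Of the breakdown and conversion enzymes 0 of 5 passed in either direction; Maob, which oxidises dopamine, gave 0.36 ± 0.13 (adjusted p = 0.0659). Maoa, its relative, gave 0.25 ± 0.18 (adjusted p = 0.402).

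Of the transcription factors of midbrain dopamine neurons, 3 of 6 measured were higher and 0 lower: En2 (2.34 ± 0.70), Foxa2 (2.24 ± 0.60) and Otx2 (1.89 ± 0.45), all with roles in midbrain development. En2 gave 43.7 to 783 on the SN_VTA arrays and up to 9616 on an array outside SN_VTA, and Otx2 gave 483 to 991 and up to 2860. Pitx3, which is found in the brain mainly in these neurons, gave only 2.63 in SHR, 30.6 in WKY, 0.833 in SD-PCB and 24.5 in SD, and 0.26 ± 0.65 (adjusted p = 0.849). Of 12 other genes known from dopamine neurons, 3 were higher and 0 lower: Sncg, gamma-synuclein (3.66 ± 0.61), Slc10a4, a vesicular protein of monoamine and cholinergic neurons (2.80 ± 0.56), and Ntsr1, a neurotensin receptor (2.48 ± 0.67), which was singled out after its values were seen. Calb1, calbindin, passed the p limit downward at -0.66 ± 0.14 (adjusted p = 0.00139), and Gfra1, a co-receptor of Ret, upward at 0.95 ± 0.25 (adjusted p = 0.00857), both under the log2 limit. Spr, Pcbd1, Lmx1a, Lmx1b and En1 were not analysed here.

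Outside the midbrain, Ret was called in 4 of the 5 regions. Against the mean of the other 5 regions, DS was lower in 2 of 9 genes (1.51% of all probe sets), VS in 1 (0.370%), PFC in 2 (2.15%) and Hipp in 2 (0.593%), and Vermis was higher in 1 (11.9%). The higher share of called probe sets depended on the scaling in PFC (43.1%, against 60.7% with quantile normalization and 64.6% with median centring) and Vermis (67.4%, against 44.1% and 39.5%), and Ret kept its call in both regions. As SN_VTA is part of that mean, the regions were compared again with the other 4 regions outside SN_VTA, a comparison added after the data were seen. Hipp and VS then had 0 genes called in either direction. With it, the lower signals of Th (-2.54 ± 0.60, adjusted p = 0.00856) and Slc6a3 (-1.72 ± 0.49, adjusted p = 0.0367) in Hipp became -1.39 ± 0.61 (adjusted p = 0.274) and -0.33 ± 0.50 (adjusted p = 0.864).

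Vermis was higher in 2 of 9 genes in this comparison (10.9% of all probe sets): Ret by 3.79 ± 0.23 (adjusted p = 1.29e-13) and Aldh1a1 by 1.25 ± 0.24 (adjusted p = 1.63e-04). Aldh1a1 gave 3061, 5224, 2976 and 3819 there in SHR, WKY, SD-PCB and SD. The second Ret probe set also rose in Vermis (3.03 ± 0.64, adjusted p = 5.12e-04). So did the dimmer probe sets of Slc6a3 (1368602_at, 1.66 ± 0.55), Slc18a2 (1369132_at, 1.70 ± 0.55) and Ddc (1375317_at, 1.64 ± 0.59), whose brightest probe sets were not called there.

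DS was lower in 2 genes (1.43%), Ret at -1.65 ± 0.23 (adjusted p = 6.94e-06) and Aldh1a1 at -1.16 ± 0.24 (adjusted p = 0.00136). The mean it was set against includes Vermis, where both genes are bright. By mean log2 signal Ret was at 7.68 in DS, 7.42 in PFC, 8.50 in VS, 9.39 in Hipp and 12.03 in Vermis. Aldh1a1 was at 9.92 in DS, 10.36 in VS, 10.87 in PFC, 11.24 in Hipp and 11.84 in Vermis. A comparison without Vermis was not run. PFC was lower in 2 (2.37%), Ret at -1.99 ± 0.23 (adjusted p = 4.43e-07) and Slc6a3 at -1.55 ± 0.50 (adjusted p = 0.0468). The Slc6a3 difference rests on signals of 61.4 in SHR, 19.2 in WKY, 2.99 in SD-PCB and 7.49 in SD, far under those of SN_VTA. Against the other 4 regions outside SN_VTA, no probe set of Th, Ddc or Slc18a2 was called in DS or VS, the regions that receive the axons. Against the mean that includes SN_VTA, the second Slc18a2 probe set, 1384933_at, was lower in DS (-1.04 ± 0.29, adjusted p = 0.0195).

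Within SN_VTA each strain group has 1 array, so the values below have no replicate and no test. The SD-PCB array was the lowest of the 4 in 7 of the 9 genes (12 of 16 probe sets), all but Nr4a2 and Qdpr, as it was in 39.2% of the 15266 probe sets with a mean SN_VTA signal at or above about 116.2. Set against SD, 5 of 9 genes had a log2 difference of -1 or less (10.4% of those probe sets) and 0 of at least 1 (8.10%). The median was -1.34 over the 9 genes and -0.09 over those probe sets.

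The SD-PCB array gave 9.75% of the signal of the SD array for Th and 12.3% for Slc6a3, log2 differences of -3.35 and -3.03. For Aldh1a1 it gave 27.3%, for Ddc 30.1% and for Ret 39.4%. Slc18a2 stood at 58.3% and its second probe set at 41.4%. Pts was at 53.4%, Qdpr at 110.2% and Nr4a2 at 137.7%.

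As an addition made after the data were seen, the SN_VTA signal was also taken as its excess over the mean of the other 5 regions of the same group. By this measure SD-PCB had 8.69% of the SD excess for Aldh1a1, 9.82% for Th, 12.1% for Slc6a3, 23.6% for Ddc, 30.4% for Ret, 49.1% for Slc18a2 and 115.3% for Qdpr. With each array centred on its median, Ret was at -0.85 and 4 genes were at -1 or less.

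Genes of other cell types differed between the same arrays, and their part in these differences was not tested. Of the serotonin neuron markers, 3 of 4 were measured, and their summed signal was 1069 in SHR, 906 in WKY, 34.6 in SD-PCB and 1231 in SD. Most of that sum was Slc6a4, the serotonin transporter, which gave 907, 876, 13.2 and 1074 and was the only 1 of the 3 called higher in SN_VTA. Fev gave 127.8, 23.6, 2.05 and 135.4, and Htr1a was dim and similar in SD-PCB and SD, at 19.4 and 21.4. Of the hypothalamic neuropeptide genes, 5 of 5 were measured and 5 were higher in SN_VTA than in the mean of the other regions. Their sums were 25891 in SHR, 1356 in WKY, 17506 in SD-PCB and 3013 in SD, and at most 1869 outside SN_VTA. On the WKY and SD arrays Hcrt, Avp, Oxt and Trh lay within the range of the other regions. Pmch, melanin-concentrating hormone, gave 9765, 1038, 13017 and 2447, and at most 280 outside SN_VTA.

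The midbrain and thalamic glutamate marker Slc17a6, by contrast, was similar on the 4 arrays, at 5923, 5996, 6534 and 5742. Among the pathway genes, En2 gave 616, 766, 43.7 and 783, and Slc10a4 gave 1441, 709, 84.9 and 1196. For SD-PCB minus SD, 4 of the 6 transcription factors were at log2 -1 or less and 0 at 1 or more. Of the 12 other dopamine neuron genes, 6 were at -1 or less and 1, Calb1, at 1 or more. Among probe sets with a mean SN_VTA signal at or above about 116.2, the shares were 10.4% and 8.10%. Several counted genes were dimmer, such as Foxa1 (2.84 in SD-PCB, 49.2 in SD) and Pitx3 (0.833 and 24.5), and no share was taken for dim probe sets. Over the 6 regions, the dimmest of 4 equal sets of probe sets had a median of -1.48. Calb1 gave 4438, 3073, 7695 and 3725, and the sum of those 12 genes was 8553, 5682, 9196 and 6883. The oligodendrocyte sum was 51196 in SHR, 41329 in WKY, 32565 in SD-PCB and 61135 in SD, and the choroid plexus sum was 734, 8188, 761 and 6867. Nearly all of the choroid plexus sum was Ttr, at 608, 8138, 723 and 6787. The other choroid plexus markers were dim and higher in SHR than in WKY: Kl gave 37.0 and 24.1, and Folr1 88.7 and 26.0. The GABA neuron sum was 8272, 7927, 6345 and 8766 in the same order of groups. All 4 striatal and both measured pyramidal neuron markers were lower in SN_VTA than elsewhere. The SD-PCB array of SN_VTA also had the lowest median signal of these 4 arrays, 92.8, against 139.4 in SHR, 110.4 in WKY and 130.7 in SD. The log2 ratio of 3′ to 5′ Gapdh probe sets, a sign of RNA quality, was 1.40 in SHR, 1.71 in WKY, 0.82 in SD-PCB and 1.98 in SD. That of beta-actin was 2.61, 4.01, 2.88 and 3.60 in these groups, an order in which SHR and not SD-PCB was lowest.

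**Figure D3:**
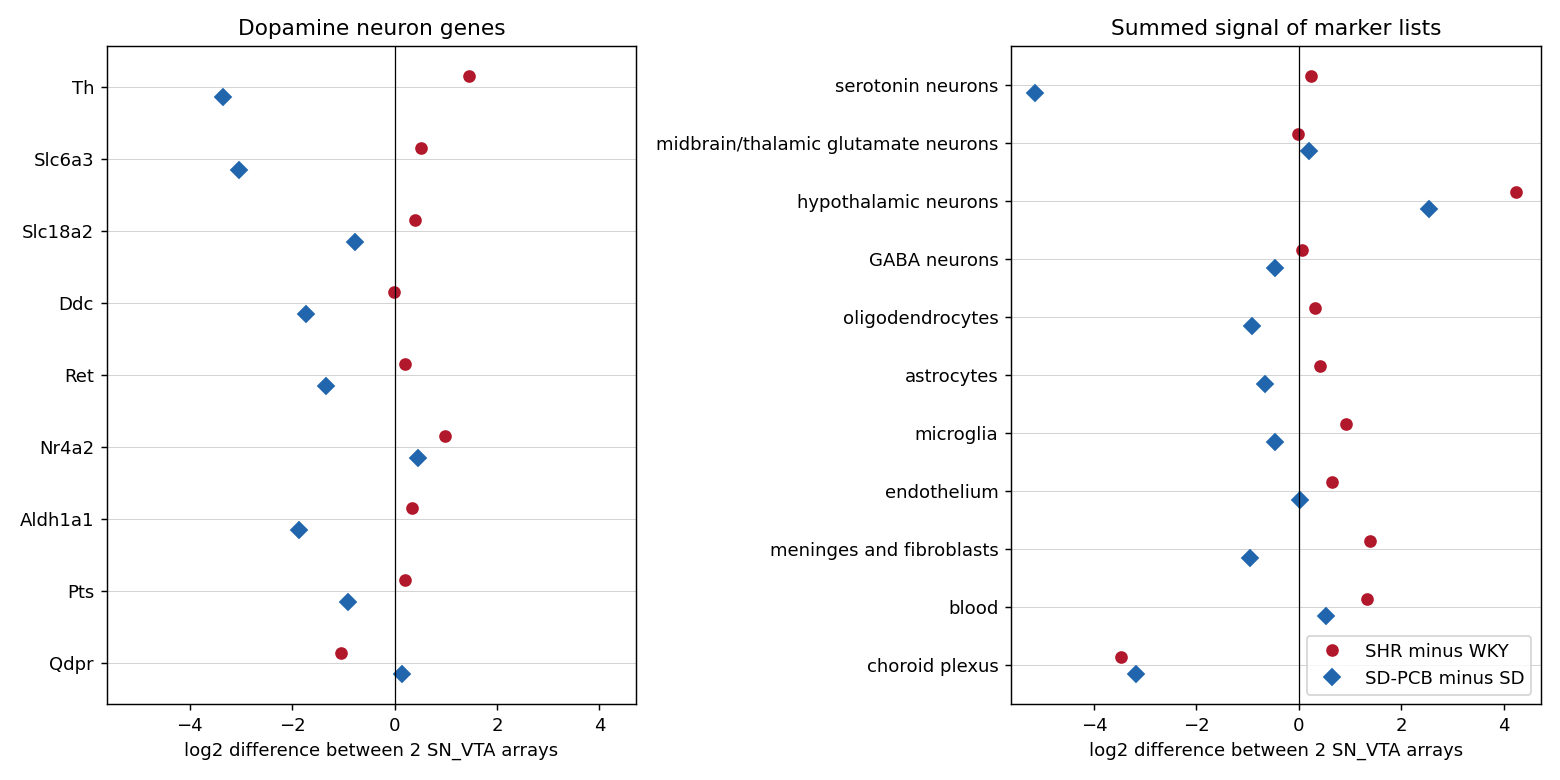
Log2 difference between 2 SN_VTA arrays, SHR minus WKY (circles) and SD-PCB minus SD (diamonds), for the 9 genes on the left and for the summed signal of 11 marker lists on the right. Each point compares 2 single arrays and has no error. For SD-PCB minus SD, Th and Slc6a3 lie at -3.35 and -3.03, the serotonin list, mostly the signal of Slc6a4, at -5.15 and the hypothalamic list at 2.54. SHR minus WKY has the hypothalamic list at 4.25.

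In the other comparisons within SN_VTA fewer of the 9 genes stood apart. For SHR minus WKY, Th was at 1.45 (1 of 9 at 1 or more, 5.50% of those probe sets) and Qdpr at -1.04 (1 of 9 at -1 or less, 6.13%). For SHR minus SD, Ddc was at -1.21 (1 of 9 at -1 or less, 3.25%) and 0 of 9 were at 1 or more (3.16%). For WKY minus SD, Ddc was at -1.19 (1 of 9, 3.66%) and 0 were at 1 or more (3.17%). Slc6a3 stood at 142.2% in SHR relative to WKY, and Slc18a2 at 131.0%. The 2 comparisons with SD share the SD array, whose Ddc signal of 1486 was the highest of the 4.

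Over the 6 regions, 1 to 3 of the 9 genes passed in each strain group comparison, and all of these were lower in the group named first. The 6 arrays of a strain group come from rats of that group alone, and which rats an array holds is not given. The p-values of these comparisons therefore measure the spread between regions and not between animals. The comparisons with SD share the 6 SD arrays, and both comparisons with WKY share the 6 WKY arrays. In the deposited scaling the probe sets as a whole were shifted between strain groups, as given with each comparison. With the probe sets split by mean signal into 4 equal sets, the SD-PCB minus SD median was -1.48 in the dimmest set, -0.87 in the next, then -0.17, and 0.10 in the brightest. In the same order, the medians were -0.97, -0.47, -0.03 and 0.09 for WKY minus SD. They were 0.86, 0.36, 0.16 and -0.04 for SHR minus WKY, and -0.13, -0.10, 0.10 and 0.01 for SHR minus SD. Th and Slc6a3 lie in the second dimmest set, and the part of these shifts in their differences was not tested.

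**Figure D4:**
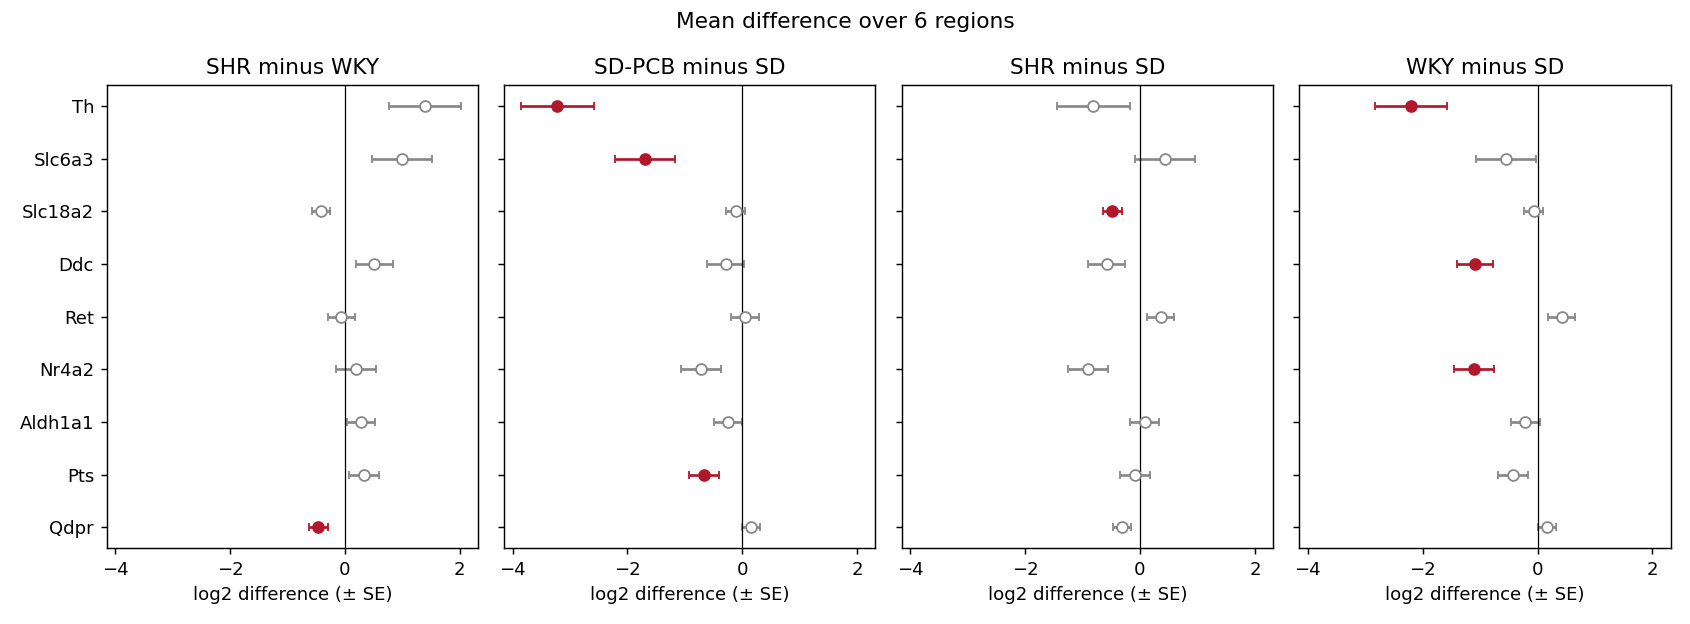
Log2 difference averaged over 6 regions (points) with its SE (bars) for the 9 genes in the 4 strain group comparisons. Filled points passed an adjusted p of 0.05 in the deposited scaling; open points did not. Th of SD-PCB minus SD lies farthest from 0 at -3.22.

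For SD-PCB minus SD, 3 of 9 genes were lower and 0 higher, where 27.7% of all probe sets were lower and 7.99% higher. The median was -0.29 over the 9 genes and -0.37 over all probe sets. Th gave 1.29, 8.73 and 216.8 (lowest, median and highest of the 6 regions) in SD-PCB, against 10.8, 79.4 and 2223 in SD. It was lower in SD-PCB in all 6 regions, at log2 -6.77 to -1.26, and the mean difference was -3.22 ± 0.63 (adjusted p = 4.23e-04). Outside SN_VTA the SD-PCB signals were only 1.29 to 16.1, and -6.77 is the DS value, 1.29 against 249.0 in SD. Slc6a3 gave 2.99, 23.4 and 955 in SD-PCB, against 7.49, 107.8 and 7789 in SD, with a difference of -1.69 ± 0.52 (adjusted p = 0.0131) and Hipp as the region that ran the other way. Pts gave 82.2, 99.6 and 142.2 in SD-PCB, against 117.2, 177.1 and 201.7 in SD, a difference of -0.67 ± 0.26 (adjusted p = 0.0446). The second Slc6a3 probe set was lower as well (-1.48 ± 0.57), and so were dim probe sets of Slc18a2 (1369132_at, -1.87 ± 0.57) and Ddc (1375317_at, -2.38 ± 0.61).

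These calls depended on the scaling, except that of Th. After quantile normalization 8.02% of all probe sets were higher and 7.65% lower, and of the 9 genes only Th stayed lower, at -2.18. After centring on the median 36.2% were higher and 10.6% lower, Th was lower at -2.50, and Slc18a2, Ret and Qdpr were higher. Pts was then at 0.05 and Slc6a3 at -0.96 without passing. Th outside SN_VTA had a median signal of 4.91 in SD-PCB and 67.6 in SD over 5 regions, and without the SN_VTA arrays its difference was -3.20 and without the DS arrays -2.52, both called. With a pseudocount of 16 it was -2.11 and called. Slc6a3 did not pass without the SN_VTA (-1.42), DS (-1.37) or VS arrays (-1.52), and Pts passed only when no region or VS was left out.

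For SHR minus WKY, Qdpr was lower (1 of 9, with 8.21% of all probe sets lower) and 0 genes were higher (14.2%), with a median of 0.28 over the 9 genes and 0.21 over all probe sets. Qdpr gave 799.5, 1189 and 2074 in SHR, against 942.5, 1435 and 4271 in WKY, overlapping ranges with a difference of -0.46 ± 0.16 (adjusted p = 0.0420), negative in 5 of 6 regions. Without the DS, Hipp or SN_VTA arrays it did not pass (-0.43, -0.40 and -0.34). Th gave 1.39 ± 0.63 (adjusted p = 0.114) and Slc6a3 0.99 ± 0.52 (adjusted p = 0.166), the second positive in 6 of 6 regions. Quantile normalization left 0 genes called, with 8.42% of probe sets higher and 9.98% lower. Median centring left Slc18a2 and Qdpr lower, with 5.40% higher and 19.5% lower.

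For SHR minus SD, Slc18a2 was lower (1 of 9, with 8.56% of all probe sets lower) and 0 genes were higher (9.07%), with medians of -0.31 over the 9 genes and -0.01 over all probe sets. It gave 557, 753 and 6692 in SHR, against 892, 1023 and 6566 in SD, a difference of -0.48 ± 0.16 (adjusted p = 0.0413). It did not pass without the DS, VS, Hipp or Vermis arrays (-0.44 to -0.42). In SN_VTA itself, where the gene is brightest, the difference was 0.03, so the lower signals were those of the other 5 regions. Its second probe set gave -1.01 ± 0.31 (adjusted p = 0.0218). Median centring left 0 genes called, with 10.7% of probe sets higher and 5.91% lower, and quantile normalization left Slc18a2 and Nr4a2 lower.

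For WKY minus SD, 3 of 9 genes were lower (10.9% of all probe sets) and 0 higher (4.82%), and the 9 genes had a median of -0.43 where all probe sets had -0.17. Th gave 3.51, 16.7 and 1368 in WKY, against 10.8, 79.4 and 2223 in SD (-2.20 ± 0.63, adjusted p = 0.0199). Ddc gave 50.7, 60.2 and 651 in WKY, against 61.9, 161.0 and 1486 in SD (-1.09 ± 0.32, adjusted p = 0.0239). Nr4a2 gave 137.5, 194.8 and 561 in WKY, against 188.0, 509.8 and 853 in SD (-1.10 ± 0.35, adjusted p = 0.0327). Each of the 3 was lower in WKY in all 6 regions. Without the DS arrays none of them passed, with Th at -1.50, Ddc at -0.99 and Nr4a2 at -0.82. Ddc also did not pass without Hipp (-1.02) or SN_VTA (-1.07), nor Nr4a2 without VS (-1.18) or Vermis (-0.82). After quantile normalization 0 passed, with 4.43% of probe sets higher and 4.17% lower, and after median centring Th was lower and Ret and Qdpr higher, with 26.0% higher and 5.43% lower.

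The comparison of the models asked whether SHR minus WKY differed from SD-PCB minus SD. Of the 9 genes 3 had a positive difference (32.6% of all probe sets) and 1 a negative one (10.1%), and the median was 0.80 over the 9 genes and 0.60 over all probe sets. Th gave 4.61 ± 0.90 (adjusted p = 3.03e-04), positive in 6 of 6 regions at 2.40 to 10.21. It was 3.49 without the DS arrays and 2.93 with a pseudocount of 16, and was called in both. Slc6a3 gave 2.68 ± 0.73 (adjusted p = 0.00492) and Pts 1.01 ± 0.37 (adjusted p = 0.0280), while Qdpr gave -0.61 ± 0.23 (adjusted p = 0.0352).

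Th was called positive in this comparison in each of the 3 scalings, at 3.08 after quantile normalization (11.1% of probe sets positive and 12.8% negative) and 3.55 after median centring (11.5% and 35.7%). After median centring Slc18a2, Ret and Qdpr were negative. Slc6a3 was at 1.23 and 1.62 in these scalings and did not pass. Pts, at 0.09 and -0.05 in them, also did not pass without PFC, Hipp, SN_VTA or Vermis. Qdpr did not pass without DS, Hipp, SN_VTA or Vermis (-0.58 to -0.47) and was at -0.41 after quantile normalization without passing.

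Over the 24 arrays, the genes most like Th by Pearson correlation of log2 signal, of 14216 ranked, were Slc6a3 (0.88), Vapb (0.86), Vsig10l (0.85), Gchfr (0.85), Slc6a4 (0.85), Cd320 (0.81), Hsdl2 (0.81) and Ddc (0.81). Those most like Slc6a3 were Th (0.88), Klk6 (0.88), Slc18a2 (0.87), Tppp3 (0.87), Gpr137b (0.87), Rnf130 (0.86), Gdpd2 (0.86) and Kcnj16 (0.85). Slc18a2 ranked 18 for Th and Ddc ranked 12 for Slc6a3. Nr4a2 ranked 10330 for Th (-0.08) and 10784 for Slc6a3 (-0.12). The 24 arrays share 6 regions and 4 strain groups. Gchfr gave 443.6, 354.7, 83.2 and 404.1 in SN_VTA in SHR, WKY, SD-PCB and SD, and at most 227.5 elsewhere.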

How the data were processed

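The authors deposited a table of 24 arrays in which each probe set has 1 intensity, a MAS5 signal per the submitters' processing notes; the MAS5 version is not given in the sources used here. RNeasy columns served for the RNA and an Ovation kit for the labelling, per the labels' protocols. Of 31099 probe sets, 57 control probe sets were left out. The platform annotation, which can be old, gave 1 symbol to 20826 probe sets, several to 436 and none to 9780. Members were named by single symbol, and 0 matched by an older name. Signals were taken as log2(signal + 1) with no filter on low signal, because Th and Slc6a3 are bright on only 4 arrays. limma 3.58.1 in R 4.3.3 was fitted with region and strain group as terms and its variances were moderated along the mean signal (eBayes, trend); tests are two-sided. The number of arrays limits the precision. The fit was tested on simulated data. All 9 genes are reported, and at most 4 genes of each related list are named, those with the smallest p in SN_VTA, with exceptions stated. The signal excess in SN_VTA and the comparison with the 4 regions outside it are later additions, chosen with the data seen. The members and lists were chosen with earlier results of these data known.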

Additional observations from a re-analysis of the deposited data

Results flagged for a closer look

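Among 54 sets of 4 arrays (9 genes in 6 regions), 5 had 1 array far from the other 3 by Dixon's ratio of its gap to the range of log2 signals, and chance flags about 1 in 20 such sets. The ratio was 0.838 for Slc6a3 in SN_VTA, where the SD-PCB array gave 955 and the others 5916 to 8411. It was 0.995 for Th in Vermis, where the SD array gave 91.2 and the others at most 16.1, and 0.865 for Slc18a2 in Hipp, where the SHR array gave 557 and the others 931 to 1008. For Pts it was 0.864 in DS, where the SD array gave 201.7 and the others 134.6 to 142.2, and 0.983 in Hipp, where the SD-PCB array gave 99.5 and the others 162.0 to 163.4.

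By the test of the difference itself, SHR minus WKY against SD-PCB minus SD over 6 regions, 4 genes differed between the models: Th by 4.61, Slc6a3 by 2.68, Pts by 1.01 and Qdpr by -0.61 on the log2 scale. Over all probe sets 32.6% were called higher and 10.1% lower, and the median was 0.60. Of the 4 genes, Th was called in each of the 3 scalings, while Slc6a3 was at 1.23 and 1.62 and Pts at 0.09 and -0.05 after quantile normalization and median centring without a call, and Qdpr was called after median centring but not after quantile normalization.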

How the results depend on the processing

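The 7 genes called in SN_VTA were called under quantile normalization, median centring, a pseudocount of 16, no trend, array weights, 1 probe set per gene and leaving out each strain group. A filter at the median of mean signal left out Th and Slc6a3 and called 5, and 4 genes passed against each region alone. Strain group and region are both terms, so regions are compared within strain groups and strain groups within regions; the labels give no replicate numbers for a further block. Counts of genes called in other comparisons moved. VS went to 2 with array weights or a log2 limit of 0.5 (leaving out a strain group 1 to 2) and 0 against the 4 regions outside SN_VTA. PFC went to 1 with the filter and 5 at the limit of 0.5. Hipp went to 1 with quantile normalization or no trend and 0 with the filter or against the 4 regions outside SN_VTA (leaving out a strain group 0 to 2, with 1 without SHR and 0 without WKY or SD). Vermis went to 2 with median centring or against those 4 regions and 3 at the limit of 0.5 (leaving out a strain group 1 to 2). SHR minus WKY went to 0 with quantile normalization or no trend, 2 with median centring or an adjusted p of 0.1, and 3 with array weights (leaving out a region 0 to 1, with 0 without DS or Hipp). SD-PCB minus SD went to 1 with quantile normalization or the filter (leaving out a region 1 to 2, with 1 without DS). An unmoved count can hold other genes. Without SN_VTA, the 1 gene called for SHR minus WKY was not Qdpr. The 2 called for SD-PCB minus SD without SN_VTA included Th but neither Slc6a3 nor Pts. SHR minus SD went to 2 with quantile normalization or an adjusted p of 0.1 and 0 with median centring, no trend or array weights (leaving out a region 0 to 2). WKY minus SD went to 0 with quantile normalization (leaving out a region 0 to 3). The models comparison went to 1 with quantile normalization and 2 with the filter (leaving out a region 2 to 4, with 2 without Hipp or Vermis). Within SN_VTA, WKY minus SD went to 0 with median centring. Pts reversed with median centring, to 0.05 for SD-PCB minus SD and -0.05 between the models. Of the tested single gene values under these settings, 273 kept direction and call, 58 kept direction only and 2 reversed. Of the untested ones within SN_VTA, 26 moved by less than the residual spread of the fit and 1 by more; with median centring Ret (-0.85, SD-PCB minus SD) and Ddc (-0.95, WKY minus SD) came inside the log2 limit of 1. The cause was not tested. With 1 array per region and strain group, no value within a region has an error, and dim signals such as Th outside SN_VTA have no known background.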
